A study of Caenorhabditis elegans with 6 samples.

Results

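The genes described here carry the symbols abu or pqn followed by a number in the annotation of a *Caenorhabditis elegans* expression array. They were chosen by symbol alone. The annotation names 69 such genes, 15 abu and 54 pqn. Of these, 11 abu and 47 pqn genes are among the 17118 genes on the array with a probe set that names no other gene, and where a gene has several, the one with the largest signal averaged over all 6 arrays stands for it. The other 4 abu and 7 pqn genes appear only on probe sets that name several genes, and those probe sets are given apart.

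The names say how the genes were found. The abu genes (activated in blocked unfolded protein response) were named for transcripts that rose in *C. elegans* under endoplasmic reticulum stress when the normal stress response was disabled. The pqn genes (prion-like, Q/N-rich) were named for glutamine- and asparagine-rich stretches in their proteins, so they form a class by composition and not by shared descent. A subset of abu and pqn genes encodes related secreted proteins of the cuticle that lines the pharynx, the feeding organ. That lining, with its chitin and its grinder, is shed and rebuilt at each molt, and transcripts of several of these genes are known to rise and fall with the molting cycle.

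RNA came from whole worms at larval stage L4, the last larval stage, grown at 25 °C on the bacterium OP50. The alg-1(gk214) mutant, written alg-1(-), was compared with N2 wildtype worms, with 3 arrays of each. ALG-1 belongs to the Argonaute family and binds microRNAs. The study asked about genes targeted by it. RNA of the whole worm holds all tissues. The labels call the replicates independent without saying whether each came from a separate culture, so the p-values measure the spread between these arrays.

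In the arrays as a whole, Pearson correlations over probe sets were 0.998 within alg-1(-), 0.994 to 0.996 within wildtype and 0.968 to 0.976 between the genotypes. The brightest of 3 probe sets for alg-1 itself read 5.90, 6.09 and 6.09 log2 in alg-1(-), against 6.80, 6.83 and 6.65 log2 in wildtype. The difference was −0.73 log2 (SE 0.0846, limma adjusted p = 0.000245), a second fell by 0.62 (limma adjusted p = 0.00977) and the third differed by −0.10 (limma adjusted p = 0.748). The sources do not say where these probes lie relative to gk214, so this is a limited check of the genotype. By the GAPDH control probe sets, the 3′ minus 5′ difference ran from −0.22 to −0.14 log2 in alg-1(-), against −0.23 on wildtype replicates 1 and 2 and −0.58 on wildtype replicate 3. In the abu and pqn genes it was instead wildtype replicate 1 that stood apart, so the counts of calls in both families are given with and without that array.

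A few abu genes rose, and most did not pass the test. Of the 11 abu genes with a probe set of their own, 3 rose and 0 fell in alg-1(-) at an adjusted p under 0.05 (limma). At an unadjusted p under 0.05, 3 were lower. Over all 22548 probe sets tested, 33.7% passed, 14.8% higher and 18.9% lower. The median difference was −0.14 log2 for the abu genes, the value of abu-2, a gene of low signal, and −0.05 for all probe sets. For the 8 abu genes with signals above the median of all probe sets it was −0.39, against −0.03 for all probe sets above that median. Values of alg-1(-) and wildtype did not overlap for 3 of the 11 genes, against 48.0% of all probe sets. Without wildtype replicate 1, abu-12, abu-13 and abu-14 were again higher and 5 other abu genes were lower. Of all probe sets, 34.7% then passed, 14.8% higher and 20% lower (4500 of 22548). Wildtype replicate 1 was singled out by its low values in these genes, so this change in the abu count is a description.

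The steepest rise was that of abu-13. It read 10.98, 10.77 and 10.76 log2 in alg-1(-), against 7.47, 7.95 and 7.97 log2 in wildtype. The lowest alg-1(-) array lay far above the highest wildtype array, an 8.24-fold difference of 3.04 log2 (SE 0.137, limma adjusted p = 1.05e-06).

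For abu-12 the values were 8.73, 9.02 and 8.71 log2 in alg-1(-), against 6.63, 7.15 and 7.05 log2 in wildtype. The groups again did not overlap, and the gene was 3.67-fold higher (1.87 log2, SE 0.141, limma adjusted p = 2.11e-05). Both abu-13 and abu-12 were read from probe sets ending in _s_at, which Affymetrix uses where probes match more than 1 transcript.

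The third gene to rise, abu-14, has been placed in the pharyngeal cuticle. It gave 11.92, 12.03 and 11.97 log2 in alg-1(-), against 10.98, 11.56 and 11.39 log2 in wildtype. All alg-1(-) values were above all wildtype values, by 0.66 log2 or 1.58-fold (SE 0.134, limma adjusted p = 0.00523). A second probe set specific to abu-14 was higher by 0.68 (limma adjusted p = 0.0127).

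**Figure D1:**
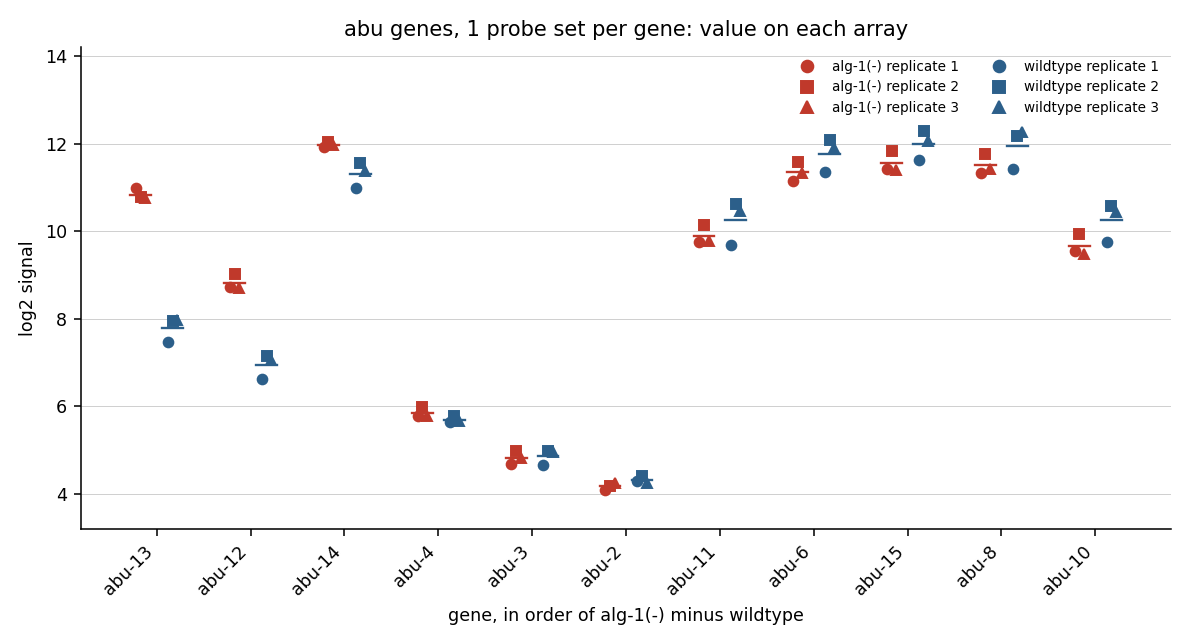
Log2 signal of the 11 abu genes with a probe set of their own on each array, alg-1(-) in red at the left and wildtype in blue at the right of each gene, with the symbol giving the replicate and a line at the mean of 3 arrays. abu-13, abu-12 and abu-14 stand clear of wildtype, and for abu-6, abu-8, abu-10, abu-11 and abu-15 the circle of wildtype replicate 1 lies below the other wildtype arrays, within the range of the alg-1(-) values or, for abu-11, under it.

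In abu-6, abu-8, abu-10, abu-11 and abu-15, wildtype replicate 1 was the lowest wildtype array and alg-1(-) replicate 2 the highest alg-1(-) array. The neighbouring genes abu-15, abu-6 and abu-7 follow each other directly in the RefSeq gene order (WBcel235), and 6 protein-coding genes lie between abu-7 and abu-8. A single probe set is annotated to both abu-7 and abu-8. The probe sets of abu-6, abu-8 and abu-15 end in _x_at, the ending for probes that may cross-hybridize, so they may not be separate measurements. That of abu-11 ends in _s_at.

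The mean over the 5 genes was 10.64, 11.05 and 10.68 log2 on the alg-1(-) arrays, against 10.77, 11.55 and 11.42 log2 on the wildtype arrays. Wildtype replicate 1 fell inside the range of alg-1(-), while wildtype replicates 2 and 3 lay above it. With all arrays the differences ran from −0.60 to −0.36 log2, with limma adjusted p from 0.0516 to 0.248, and none passed. Without wildtype replicate 1 they ran from −0.85 to −0.62, with limma adjusted p from 0.00162 to 0.00892, and all 5 were called lower. That array was singled out by its low values in these same genes, so leaving it out raises their wildtype mean by that choice. These 5 calls are a description and no support for a fall.

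The gene nearest the threshold was abu-10. It read 9.54, 9.94 and 9.48 log2 in alg-1(-), against 9.76, 10.58 and 10.43 log2 in wildtype, a difference of −0.60 (SE 0.206, limma adjusted p = 0.0516). Only alg-1(-) replicate 2 and wildtype replicate 1 made the groups overlap. Without alg-1(-) replicate 2, abu-10 and abu-15 were called lower, at −0.74 (limma adjusted p = 0.0404) and −0.58 (limma adjusted p = 0.0418). That array too was singled out by the values of these genes. A second abu-10 probe set of low signal differed by −0.08 (limma adjusted p = 0.608).

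The remaining abu genes had signals below the median of all probe sets. The differences were 0.15 for abu-4 (limma adjusted p = 0.217), −0.04 for abu-3 (limma adjusted p = 0.814) and −0.14 for abu-2 (limma adjusted p = 0.204), on the log2 scale. The RefSeq table lists abu-3 as a pseudogene. The probe set of abu-4 ends in _x_at. With arrays centred on the bacterial hybridization controls, which moved the median difference of all probe sets to 0.10, abu-3 and abu-2 turned to 0.11 and 0.01 and abu-4 passed at 0.29 (limma adjusted p = 0.0284).

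The pqn genes moved in both directions in nearly equal numbers. Of 47 with a probe set of their own, 11 rose (23.4%), 9 fell (19.1%) and 27 did not pass, against 14.8% higher and 18.9% lower over all probe sets. Their median difference was −0.01 log2. Groups did not overlap for 27 genes, against 48.0% of all probe sets. Without wildtype replicate 1, 9 were higher and 11 lower. Centring on hybridization controls gave 16 higher and 6 lower. Under that centring most calls over all probe sets were higher too, as given in the closing section.

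Among the pqn genes that rose, pqn-13 and pqn-26 were far ahead. pqn-13 read 10.31, 10.43 and 10.27 log2 in alg-1(-), against 7.64, 8.31 and 7.96 log2 in wildtype. The groups were separate by a wide margin, a 5.15-fold difference of 2.36 log2 (SE 0.148, limma adjusted p = 6.69e-06). Its second probe set gave 2.54 (limma adjusted p = 1.64e-06).

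For pqn-26 the values were 9.23, 9.39 and 9.19 log2 in alg-1(-), against 7.05, 7.67 and 7.45 log2 in wildtype. It was 3.67-fold higher with no overlap (1.88 log2, SE 0.143, limma adjusted p = 2.27e-05).

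pqn-62 gave 7.32, 7.06 and 7.32 log2 in alg-1(-), against 6.16, 6.16 and 5.81 log2 in wildtype, and was 2.28-fold higher (1.19 log2, SE 0.116, limma adjusted p = 9.67e-05). All alg-1(-) values were above all wildtype values. Unlike pqn-13 and pqn-26, its wildtype replicate 1 was not the lowest wildtype array. A second pqn-62 probe set rose less, by 0.42 (limma adjusted p = 0.00888).

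Smaller rises with no overlap were those of pqn-67 (0.79 log2), pqn-35 (0.73), pqn-48 (0.55), pqn-65 (0.44), pqn-73 (0.38), pqn-15 (0.34) and pqn-96 (0.31), with limma adjusted p from 0.000743 to 0.039. A second probe set did not pass for pqn-15 (0.06, limma adjusted p = 0.572) or for pqn-96 (0.23, limma adjusted p = 0.0651). The probe sets of pqn-65 and pqn-73 end in _s_at. The signal of pqn-73 lay below the median of all probe sets, and the gene did not pass without wildtype replicate 1 (0.30, limma adjusted p = 0.0926). The last of the 11, pqn-18, named after its values were seen, rose by 0.30 (limma adjusted p = 0.0321), and by 0.54 on its other probe set. It too did not pass without that array (0.25, limma adjusted p = 0.0756).

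**Figure D2:**
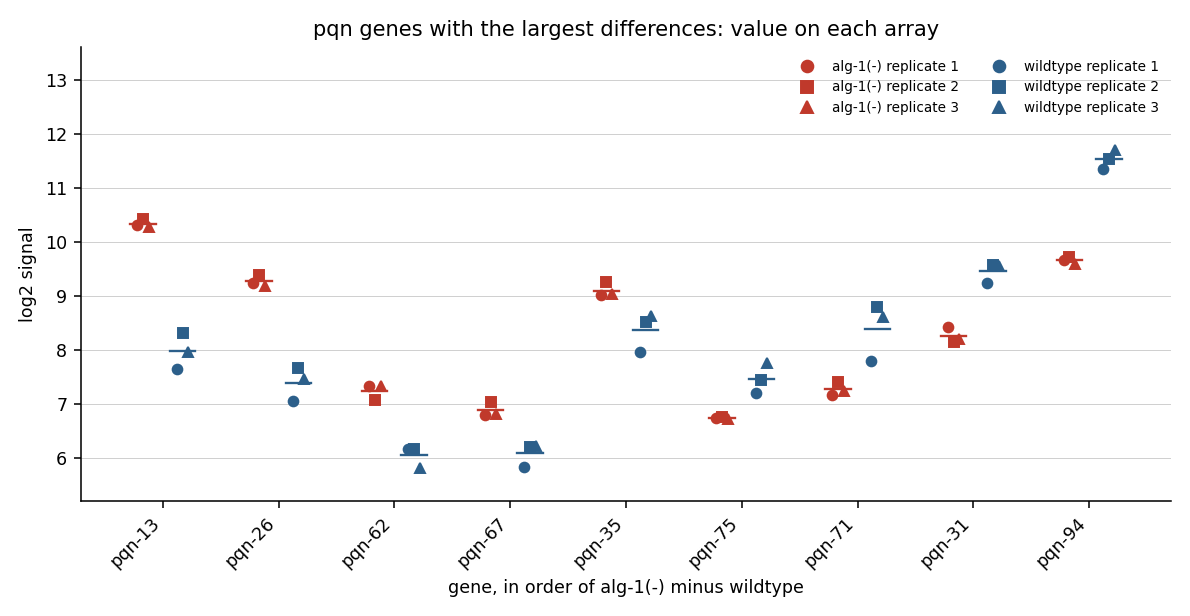
Log2 signal on each array of the pqn genes with the largest differences, alg-1(-) in red at the left and wildtype in blue at the right of each gene, with the symbol giving the replicate and a line at the mean of 3 arrays. No gene shown has overlapping groups, and pqn-94 shows the widest gap among those lower in alg-1(-).

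The steepest fall was that of pqn-94. It read 9.67, 9.72 and 9.58 log2 in alg-1(-), against 11.34, 11.54 and 11.70 log2 in wildtype. The alg-1(-) arrays all lay below the wildtype arrays, at 0.274 of the wildtype signal (−1.87 log2, SE 0.0975, limma adjusted p = 2.30e-06).

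pqn-31 gave 8.43, 8.14 and 8.21 log2 in alg-1(-), against 9.23, 9.58 and 9.56 log2 in wildtype (−1.20 log2, SE 0.116, limma adjusted p = 9.08e-05). The groups did not overlap.

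pqn-71 gave 7.15, 7.41 and 7.23 log2 in alg-1(-), against 7.79, 8.79 and 8.60 log2 in wildtype (−1.13 log2, SE 0.222, limma adjusted p = 0.00444). Wildtype replicate 1 was nearest to the alg-1(-) arrays, and without it the difference was −1.43. For pqn-75 the values were 6.73, 6.75 and 6.72 log2 in alg-1(-), against 7.19, 7.43 and 7.75 log2 in wildtype (−0.73 log2, SE 0.127, limma adjusted p = 0.00236). The alg-1(-) arrays were nearly identical and all lower than any wildtype array.

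Further falls with no overlap were those of pqn-25 (−0.56), pqn-22 (−0.55), pqn-52 (−0.37) and pqn-82 (−0.30), with limma adjusted p from 0.000675 to 0.048. The probe sets of pqn-25 and pqn-22 end in _s_at. All 3 probe sets of pqn-52 were lower, from −0.42 to −0.31. pqn-82, a probe set of low signal, was the weakest call. pqn-72, named after its values were seen, fell by 0.53 (limma adjusted p = 0.0366), although its groups overlapped, with wildtype replicate 1 below alg-1(-) replicate 2. The probe set used for pqn-72 ends in _x_at. Of the other pqn-72 probe sets, 1 passed at −0.51 (limma adjusted p = 0.0457) and 1 did not, at −0.30 (limma adjusted p = 0.167). The RefSeq gene order does not place any of these genes within 10 protein-coding genes of another that fell.

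Of the 27 pqn genes that did not pass, 24 differed by less than 0.25 log2, and the whole set ran from −0.47 to 0.26. They include pqn-59 and pqn-53, which with pqn-52 had the 3 highest mean signals among the pqn genes. pqn-59, related to mammalian UBAP2L, read 11.01, 11.07 and 10.98 log2 in alg-1(-), against 11.17, 11.10 and 11.40 log2 in wildtype (−0.20, SE 0.0891, limma adjusted p = 0.113). pqn-53 differed by 0.16 (SE 0.0799, limma adjusted p = 0.16). The probe set of pqn-59 ends in _s_at and that of pqn-53 in _x_at. pqn-41, which acts in the death of the linker cell in males and was picked with its values known, differed by 0.16 (limma adjusted p = 0.187), and its other 3 probe sets, from −0.16 to −0.02, did not pass either. For pqn-83, named after its values were seen, the brightest probe set differed by −0.04 (limma adjusted p = 0.807), but another passed at −0.30 (limma adjusted p = 0.0191). Among the 23 abu and pqn genes with several probe sets of their own, these differed in call for 5, with opposite calls for 0.

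**Figure D3:**
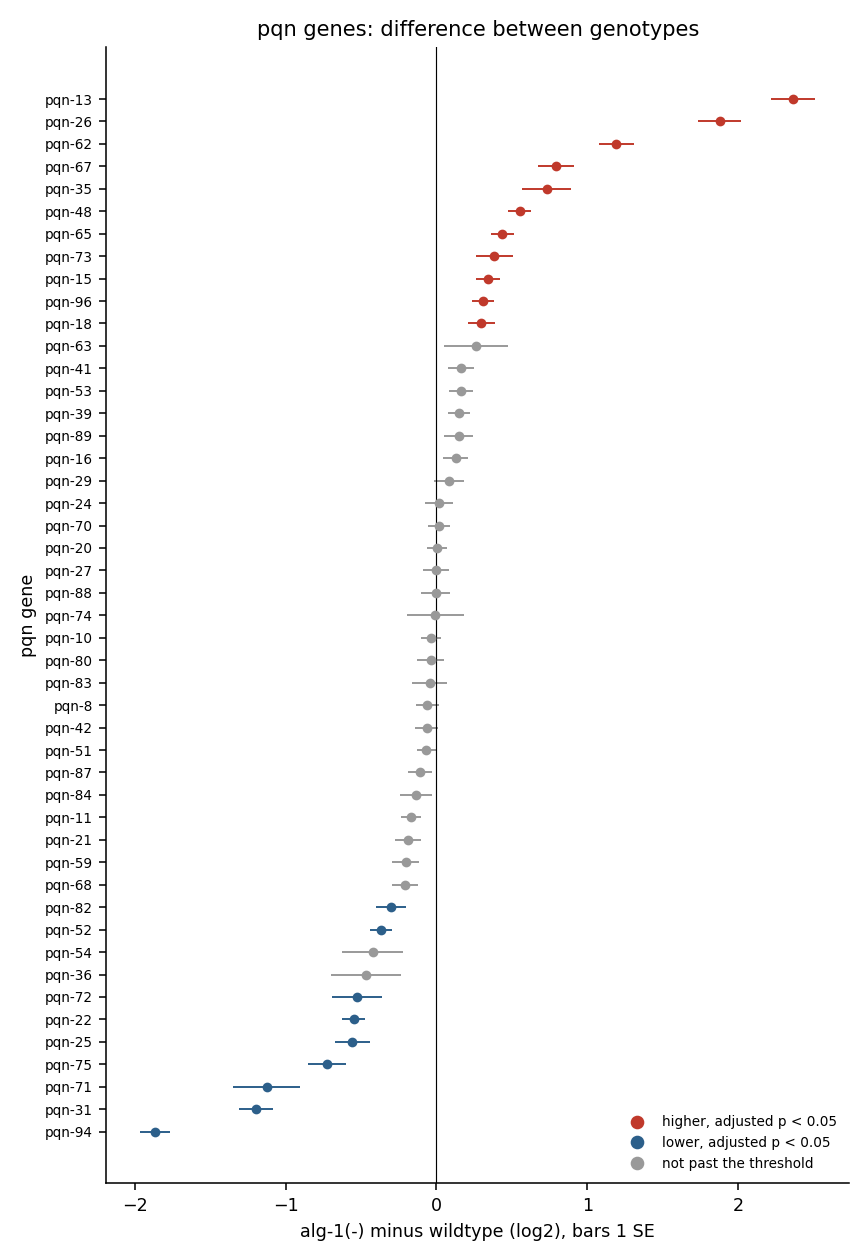
Difference between alg-1(-) and wildtype (log2, bars 1 SE from limma) for the 47 pqn genes with a probe set of their own, ordered from highest to lowest. 11 genes in red were higher and 9 in blue lower at an adjusted p under 0.05, and pqn-54 and pqn-36, in grey among the lower ones, have wide bars.

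Within each genotype, many of these genes shifted together from array to array, whichever way they differed between the genotypes. Wildtype replicate 1 was the lowest wildtype array for 10 of 11 abu genes and 26 of 47 pqn genes, against 41.2% of all probe sets. alg-1(-) replicate 2 was the highest alg-1(-) array for 9 of 11 abu genes and 23 of 47 pqn genes, against 33.1% of all probe sets. Both held for 9 of 11 abu genes and 16 of 47 pqn genes, against 15.4% of all probe sets. The median shift of wildtype replicate 1 from the mean of replicates 2 and 3 was −0.50 log2 for abu genes, −0.14 for pqn genes and −0.03 for all probe sets. As given above, the probe sets of abu-6, abu-8 and abu-15 may not be separate measurements, so these counts are a description.

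A limit of 0.4 log2, set after the values were seen, separates the members by the size of this shift. On wildtype replicate 1, 8 abu and 10 pqn genes were at least 0.4 log2 below the mean of the other wildtype arrays, against 2.60% of all probe sets. All 18 had signals above the median of all probe sets, and among the probe sets above it the share was 4.04%. The 8 are all the abu genes above that median, and alg-1(-) replicate 2 was the highest alg-1(-) array for 17 of the 18 genes. The shift was −0.95 for pqn-36, −0.90 for pqn-71, −0.86 for abu-11 and −0.49 for pqn-13.

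The 18 genes did not share a direction between the genotypes. 6 were higher in alg-1(-) (abu-12, abu-13, abu-14, pqn-13, pqn-26 and pqn-35), 3 were lower (pqn-71, pqn-72 and pqn-75) and 9 did not pass. Of all probe sets, 14.8% were higher and 18.9% lower. Without wildtype replicate 1, 6 were higher, 10 lower and 2 did not pass. Genes chosen for a low wildtype replicate 1 have, by that choice, a higher wildtype mean once it is left out, so this change in count is a description.

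The last 2 were pqn-63 and pqn-74, named after their values were seen. pqn-63 read 8.77, 9.21 and 8.73 log2 in alg-1(-), against 8.13, 8.84 and 8.95 log2 in wildtype. pqn-74, on a probe set ending in _s_at, read 10.39, 10.81 and 10.51 log2 in alg-1(-), against 10.12, 10.74 and 10.86 log2 in wildtype. In both, the arrays of the groups overlapped and the spread within a genotype exceeded the difference between genotypes, which was 0.26 (limma adjusted p = 0.394) and −0.01 (limma adjusted p = 0.984).

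Leaving out that array added 2 pqn calls, those of pqn-54 and pqn-36, also named after their values were seen, while pqn-18 and pqn-73 no longer passed. pqn-54 changed to −0.62 (limma adjusted p = 0.0237) without it, against −0.42 (limma adjusted p = 0.145) with all arrays. pqn-36 changed to −0.78 (limma adjusted p = 0.000635), against −0.47 (limma adjusted p = 0.162). Of the 5 probe sets of pqn-36, 1 passed with all arrays, at −0.38 (limma adjusted p = 0.047). The probe set used for pqn-36 ends in _s_at.

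**Figure D4:**
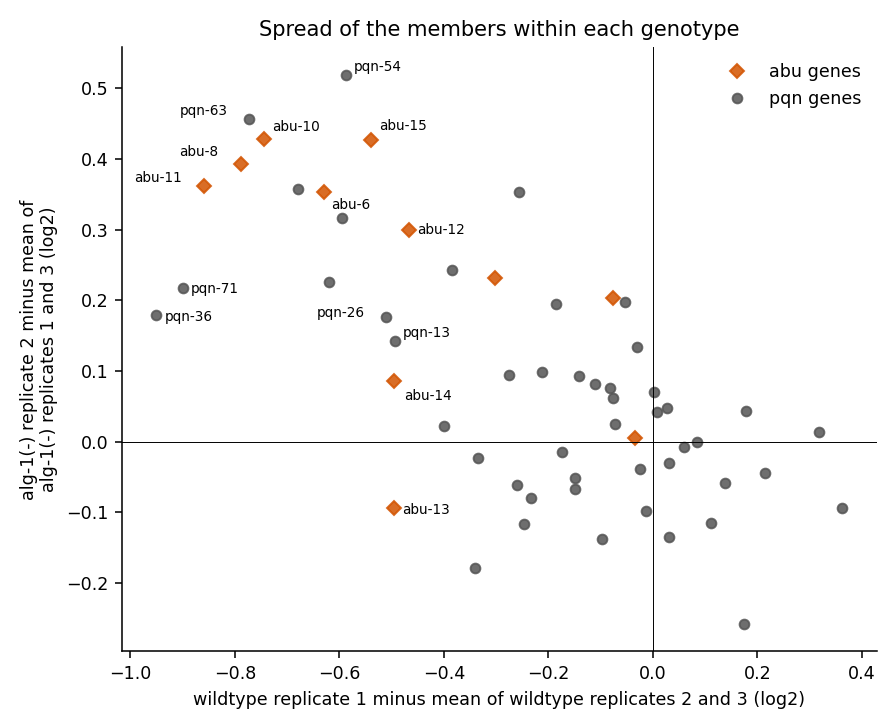
Each point is 1 gene, with the shift of wildtype replicate 1 from the other wildtype arrays across and the shift of alg-1(-) replicate 2 from the other alg-1(-) arrays upward, both in log2. abu genes (diamonds) and several pqn genes (circles) fill the upper left, where wildtype replicate 1 is low and alg-1(-) replicate 2 is high, and abu-13 is the one gene left of −0.4 with alg-1(-) replicate 2 below 0.

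Genes without a probe set of their own were measured on 9 probe sets that name several genes. The probe set of pqn-57 and abu-9, which are direct neighbours in the genome, read 7.90, 8.30 and 7.78 log2 in alg-1(-), against 8.67, 9.39 and 9.42 log2 in wildtype. All alg-1(-) values were below all wildtype values, a difference of −1.16 log2 (SE 0.207, limma adjusted p = 0.00266). It was the only 1 of 9 such probe sets to pass with all arrays.

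The probe set of pqn-2 and abu-1, also direct neighbours, read 9.45, 9.84 and 9.36 log2 in alg-1(-), against 9.64, 10.35 and 10.33 log2 in wildtype (−0.55, limma adjusted p = 0.0602). That of abu-7 and abu-8 differed by −0.43 (limma adjusted p = 0.105). Without wildtype replicate 1 these were −0.79 (limma adjusted p = 0.00235) and −0.66 (limma adjusted p = 0.00242).

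The other 6 name members of a group of near neighbours in the gene order, pqn-76, abu-5, pqn-78 and pqn-79, and the adjacent pair pqn-90 and pqn-91. Their differences ran from −0.27 to −0.01, and none passed with all arrays or without wildtype replicate 1. On all 9, wildtype replicate 1 was the lowest wildtype array and alg-1(-) replicate 2 the highest alg-1(-) array. All 9 end in _x_at or _s_at and several name the same genes, so they may not be separate measurements.

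Other genes of the pharynx and of the pathways tied to these names were set beside them. Several were also read from probe sets ending in _s_at, among them chs-2, pgp-14, myo-1, myo-2, pha-4, qua-1, che-14 and hsp-4. That of mlt-9 ends in _x_at. Of 3 genes of the pharyngeal lining outside the abu and pqn names, 2 rose and 1 fell. Over all probe sets 14.8% were higher and 18.9% lower. chs-2, the chitin synthase of the pharynx, read 7.48, 7.44 and 7.43 log2 in alg-1(-), against 5.51, 6.14 and 6.33 log2 in wildtype (1.46, SE 0.179, limma adjusted p = 0.000343). The astacin protease gene nas-6 rose by 1.78 (limma adjusted p = 5.98e-05), and the transporter gene pgp-14 fell by 1.29 (limma adjusted p = 5.48e-05). On wildtype replicate 1, chs-2 and nas-6 were shifted by −0.72 and −0.63 from the other wildtype arrays.

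Markers of the pharyngeal cells moved too. Their counts are to be read against 14.8% of all probe sets higher and 18.9% lower. RNA of whole worms cannot tell fewer cells of a type from less RNA per cell. Of 7 pharyngeal muscle markers measured, 5 fell and the other 2 did not pass (median −0.51), with 6 lower without wildtype replicate 1. Those that fell with all arrays include the troponin genes tnt-4 (−0.85) and tnc-2 (−0.73) and the myosin genes myo-2 (−0.66) and myo-1 (−0.51), with limma adjusted p from 4.52e-05 to 0.00217. The summed linear signal of the 7 markers ran from 4531 to 4670 in alg-1(-), against 6838 to 7348 in wildtype. The marginal cell marker marg-1 fell by 1.31 (limma adjusted p = 3.04e-05). The part of these shifts in the abu and pqn differences was not tested.

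Over all probe sets 33.7% passed, 14.8% higher and 18.9% lower, and the pharyngeal gland and regulator counts lie near or below that total. By direction, the share called higher in each list was above 14.8%, and no gene of either was called lower. Of 7 pharyngeal gland markers, 2 rose and the other 5 did not pass (median 0.26), phat-1 by 0.60 (limma adjusted p = 0.0274) and hlh-6 by 0.28 (limma adjusted p = 0.0489). Only hlh-6 passed without wildtype replicate 1. The summed linear signal of the 7 gland markers ran from 3951 to 4219 in alg-1(-), against 3669 to 4169 in wildtype. Of 9 regulators of pharyngeal development, 2 rose and the other 7 did not pass (median 0.08), the FoxA factor gene pha-4 by 0.47 (limma adjusted p = 0.000973) and peb-1 by 1.36 (limma adjusted p = 0.00509). Among the wildtype arrays, peb-1 was highest on replicate 1, at 8.22 log2 against 6.94 and 7.22 log2 on replicates 2 and 3.

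Most genes of the molt were higher in alg-1(-). The counts of molting genes and of regulators of the molting cycle are to be read against 14.8% of all probe sets higher and 18.9% lower. Of 22 molting genes, 16 rose and the other 6 did not pass (median 1.06), and without wildtype replicate 1 there were 17 higher and 1 lower. Those that rose include mlt-9 (3.66), qua-1 (3.61), mlt-10 (2.74) and che-14 (2.28), with limma adjusted p from 9.09e-08 to 1.09e-06. The median shift of the molting genes on wildtype replicate 1 was 0.26 log2, against −0.50 for the abu genes. Of 8 regulators of the molting cycle, 6 rose and 1 fell (median 0.68), including bed-3 (2.68), lin-42 (1.97), nhr-25 (0.89) and blmp-1 (0.73), with limma adjusted p from 5.93e-07 to 0.0037. The labels give the stage as L4 with no finer time, and a difference in position within the molting cycle cannot be told apart from genotype here.

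**Figure D5:**
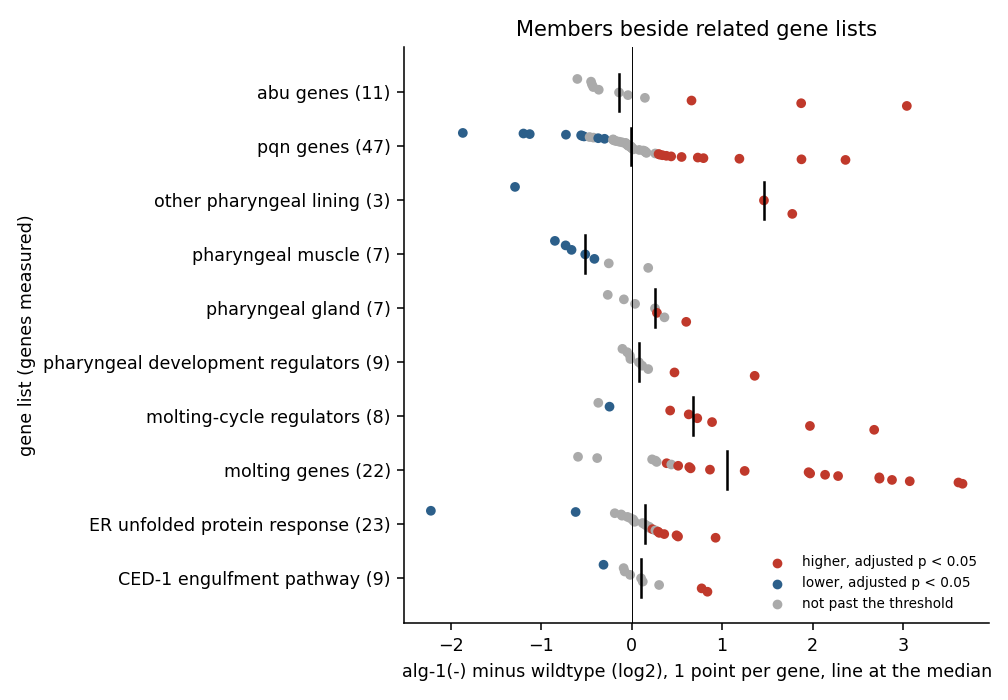
Difference between alg-1(-) and wildtype (log2) for each measured gene of the abu and pqn families and of 8 related lists, with a line at the median. Points in red were higher and in blue lower at a limma adjusted p under 0.05. The abu and pqn medians lie at −0.14 and −0.01 with points spread to both sides, while 16 of 22 molting genes are red.

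Markers of tissues outside the pharynx were counted in the same way, and are to be read against 14.8% of all probe sets higher and 18.9% lower. Of 7 hypodermis markers 4 rose (median 0.31), of 6 neuron markers 1 rose (median 0.13), of 8 intestine markers 1 rose and 2 fell (median −0.08) and of 7 body wall muscle markers 1 fell (median −0.02). Without wildtype replicate 1, the body wall muscle marker that fell, mup-2, no longer passed (−0.22, limma adjusted p = 0.0712) and another, unc-22, was higher (0.45, limma adjusted p = 0.0415), both named after their values were seen. Of 5 germ line markers 4 fell (median −0.76), and all 6 sperm markers fell (median −1.07), with a summed linear signal of 245 to 283 in alg-1(-), against 664 to 817 in wildtype. Their part in the abu and pqn differences was not tested.

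Of 23 genes of the unfolded protein response, which gave the abu genes their name, 7 rose, 2 fell and 14 did not pass (median 0.14). The share that passed in either direction was near the 33.7% of all probe sets. By direction, the share that rose was above the 14.8% of all probe sets, and the share that fell was below the 18.9%. The steepest change among them was in ckb-2, a choline kinase gene that responds to endoplasmic reticulum stress, at 7.59, 7.66 and 7.67 log2 in alg-1(-), against 9.70, 10.15 and 9.72 log2 in wildtype (−2.22, limma adjusted p = 2.55e-06). hsp-4, a gene for the chaperone BiP, fell by 0.62 (limma adjusted p = 0.000716). hsp-3, also a BiP gene and named after its values were seen, rose by 0.23 (limma adjusted p = 0.0363). The DnaJ genes dnj-27 and dnj-20 rose by 0.93 and 0.51 (limma adjusted p = 0.000884 and 0.000722).

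The receptor CED-1, which acts in the engulfment of dying cells, has been reported in *C. elegans* to be needed for induction of abu and pqn transcripts during infection. Of 9 genes of its pathway, 2 rose, 1 fell and 6 did not pass (median 0.10). In total this is close to the 33.7% of all probe sets that passed, 14.8% higher and 18.9% lower. ced-7 rose by 0.84 (limma adjusted p = 0.0002), ced-1 rose by 0.77 (limma adjusted p = 0.0143) and ced-6 fell by 0.31 (limma adjusted p = 0.0268).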

How the data were processed

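Affymetrix single-colour arrays of 3 alg-1(-) and 3 wildtype samples were used. The log2 values deposited by the authors give each probe set on each array. Per the submitters' processing notes, Affymetrix Power Tools was used. Neither its version nor the normalization is stated there. The log2 scale was read from the values, 3.14 to 14.9, which were used as deposited, with no detection calls. The 77 control probe sets were left out. Members were matched by platform symbol, and all 69 were found by gene identifier in the RefSeq gene table (WBcel235), used for names and gene order. alg-1(-) minus wildtype was fitted with limma 3.58.1 in R 4.3.3 (lmFit, eBayes), two-sided, with Benjamini-Hochberg adjustment over 22548 probe sets. With 3 arrays a group, an exact permutation test cannot go below p = 0.1. The number of arrays limits the precision. Members, lists and tests were chosen with earlier results of these data known. The genes named by rule are all abu genes, the 10 largest rises and falls among pqn genes past the threshold with no overlap, the 3 pqn genes with the highest mean signal, and up to 4 genes per list with the smallest p. The fit was tested on simulated data. No protein or promoter sequences were used here, so planned splits by protein composition and promoter motifs were not run. The alternatives were quantile normalization, median centring, centring on bacterial hybridization controls, filters on low signal, a robust intensity-trended prior, weighted arrays, removal of _s_at and _x_at probe sets, a threshold of 0.01, a replicate block, averaging a gene's probe sets, counting probe sets of several symbols, and leaving out each array.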

Additional observations from a re-analysis of the deposited data

How the results depend on the processing

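Of 509 values of named genes under the alternatives, 469 kept their direction and their side of the threshold, 17 passed where they had not, 17 no longer passed and 6 changed sign. The calls for abu-12, abu-13, abu-14, pqn-13, pqn-26, pqn-62, pqn-71, pqn-31 and pqn-94 held under every alternative that measured them. Those for pqn-52, pqn-73, pqn-82 and pqn-96 did not. abu-3 turned to 0.037 with quantile normalization and 0.11 with centring on hybridization controls, and leaving out each array gave −0.14 to 0.029. It was above 0 without alg-1(-) replicate 1, wildtype replicate 2 or wildtype replicate 3. abu-2 turned to 0.0078 with that centring. Counts of abu genes past the threshold were 3 in the report, 6 with array weights (3 lower), 7 with a replicate block (4 lower) and 1 of 5 without _s_at and _x_at probe sets (1 higher). One abu gene was lower above the 25th percentile of signal, and 1 when probe sets of several symbols were counted. Leaving out each array in turn gave 3 to 8 abu calls, 0 to 5 of them lower. Of all probe sets, 34.7% passed without wildtype replicate 1, against 33.7% with all arrays. That share is not given here for array weights, the replicate block or the other arrays left out. The highest count, 8 with 5 lower, came without wildtype replicate 1, and 5 with 2 lower came without alg-1(-) replicate 2. The cause was not tested. With centring on hybridization controls the pqn median moved to 0.14 and 70.9% of all calls were higher, against 44.0% in the report. The count over all probe sets was 4715 without _s_at and _x_at probe sets, where fewer were tested, and 4767 at a threshold of 0.01. The replicate block changed the abu count and no other count of calls by over 1.5 times, and the numbers were not shown to pair the samples (correlations of deviations 0.21, 0.13 and 0.08 for numbers 1, 2 and 3). Planned splits by protein composition and promoter motif were not run. Low signal limits abu-2, abu-3, abu-4, pqn-73 and pqn-82.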
